A study of Danio rerio with 5 samples.

Results

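The ictacalcin and S100 genes of zebrafish were followed through 5 RNA-seq libraries of sorted epidermal cells. The group was fixed as 9 symbols: the ictacalcins icn and icn2, and s100a10a, s100a10b, s100a11, s100u, s100v1, s100v2 and s100w. Of these, 8 had a row among the 30849 gene symbols of the deposited table, each with 1 transcript row. s100v1 was not analysed here because no row carried that symbol, and a RefSeq table of the assembly GRCz12tu lists the same name both as a synonym of s100v2 and as a gene of its own. s100a10a had 0 counts in all 5 libraries, which allows a level of up to 0.338 to 0.566 CPM in the embryonic libraries and 1.37 CPM in the adult library (3 counts each, counting error only). The other 7 genes passed the filter on low counts and were tested.

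All fish carried a transgenic reporter, and the wild-type strain of the facility descends from Tubingen. Periderm, the outer layer of the embryonic skin, was sorted as krt4+ cells 1 day after fertilization from embryos whose transgene joined krt4:creERt2 to a switch reporter, Olactb:loxP-dsRed2-loxP-egfp, and to the lens marker cryaa:egfp (2 libraries). Basal precursors, the layer below it, were sorted as itgb4+ cells at the same age from Tg(itgb4:mcherry) embryos (2 libraries). Adult basal cells were itgb4+ cells of the same Tg(itgb4:mcherry) line from the caudal fin, in 1 library, and the labels give no age in days for them. The itgb4+ sorts therefore rested on 1 promoter, while the transgene of the periderm sort combined krt4, Olactb and cryaa elements. Layer, promoter and transgenic line changed together in the embryonic comparison. Age and body site changed together in both adult ones, and against periderm the layer, promoter and line changed as well. Nothing in the labels says that the replicates of a group were separate clutches. The p-values below therefore speak to how much these particular samples varied, and part or all of that variation may be technical.

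S100 proteins are small calcium-binding proteins of vertebrates that carry a pair of EF-hand motifs and usually act as dimers. On calcium binding they expose a surface that grips target proteins, among them annexins and cytoskeletal proteins. In mammals many S100 genes lie in a cluster beside genes of the cornified envelope and are abundant in epidermis. Ictacalcins are S100 proteins of fish, named after a catfish protein of the barbel and skin. In the row order of the deposited table and in the gene order of the RefSeq table of GRCz12tu, s100a10b, s100w, icn and icn2 stood next to each other, and s100a11 next to s100u.

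Gene counts, with 1 transcript row per symbol, totalled 3521994 in the adult library and between 4622900 and 7505594 in the embryonic ones. Levels below are in edgeR's CPM, counts scaled to a common library total and corrected by TMM, with factors from 0.960 to 1.19 in the embryonic libraries and 0.620 in the adult one. itgb4, the integrin of the basal sorts, measured 9.64 and 41.4 CPM in the periderm libraries, 487 and 497 CPM in those of basal precursors and 3907 CPM in the adult library. krt4, the keratin of the periderm sort, measured 60446 and 31030 CPM in the periderm libraries, 23935 and 18196 CPM in those of basal precursors and 196 CPM in the adult library. The krt4 difference between the embryonic groups did not pass edgeR's test (log2 fold change -1.14, adjusted p = 0.466). Markers of other cells were present in the sorts: 9 leukocyte markers summed to 141 and 217 CPM in periderm and to 2.64 and 10.4 CPM in basal precursors. They reached 3234 CPM in the adult library, where cd74a alone, an antigen presentation gene, gave 3150 CPM. ptprc, the pan-leukocyte phosphatase gene, gave 20.2 CPM there and was at 0 in both basal precursor libraries. In the adult library cd74a, ptprc and mpeg1.1 (5.95 CPM) lay above both periderm libraries, and coro1a (21.5 CPM) lay between them. lcp1 (30.2 CPM), spi1b (3.66 CPM), mpx (2.29 CPM), mfap4 (0.458 CPM) and lyz (0 CPM) lay below both. Summed markers of pigment cells (6 genes), neural cells (5 genes) and blood (3 genes with a row) were also higher in both periderm libraries, at 1274 and 858, 1201 and 702, and 440.1 and 519.6 CPM. In the basal precursor libraries they were at 47.3 and 133, 209 and 339, and 14.0 and 38.3 CPM, and in the adult library at most 5.04 CPM. The part of these cells in the member differences was not tested. The 9 mesenchyme markers summed to 1262 and 1922 CPM in the periderm libraries, 6361 and 5335 CPM in those of basal precursors and 2467 CPM in the adult library, of which 2384 CPM came from the collagen gene col1a2 alone. pdgfra was at 0 there, lum at 2.29 CPM and dcn at 23.8 CPM. Of the 9 markers 3 were lower and none higher in adult against periderm by edgeR. Over all genes tested 14.4% were lower and 14.2% higher in that comparison. The 5 muscle markers lay between 13395 and 30537 CPM in the embryonic libraries, while 4 of them were at 0 in the adult one.

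Per length, a different gene led the group in each sorted population. In periderm icn2 was first, at 4328 and 2874 RPKM as deposited, which placed it 6th and 9th among all genes of those libraries. icn was second there at 1593 and 1275 RPKM, and s100a10b, the gene of the annexin A2 partner, came next at 972 and 719 RPKM. In basal precursors s100a10b led at 3551 and 1979 RPKM and took 93.8% and 86.1% of the summed RPKM of the group. In those libraries icn stood at 125 and 224 RPKM, and icn2 at 11.3 and 25.5 RPKM. In the adult library icn led at 10047 RPKM, 4th among all genes, with 62.2% of the group's RPKM. s100a10b followed at 4565 RPKM and icn2 at 931 RPKM. The summed RPKM of the group was 7140 and 5184 in periderm, 3785 and 2298 in basal precursors and 16152 in the adult library. Summed TMM-scaled CPM was 5071 and 3685 in periderm, 4534 and 2271 in basal precursors and 20852 in the adult library. By that measure the embryonic groups overlapped. The remaining tested genes, s100w, s100v2, s100u and s100a11, each took at most 3.8% of the summed RPKM in any library.

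**Figure D1:**
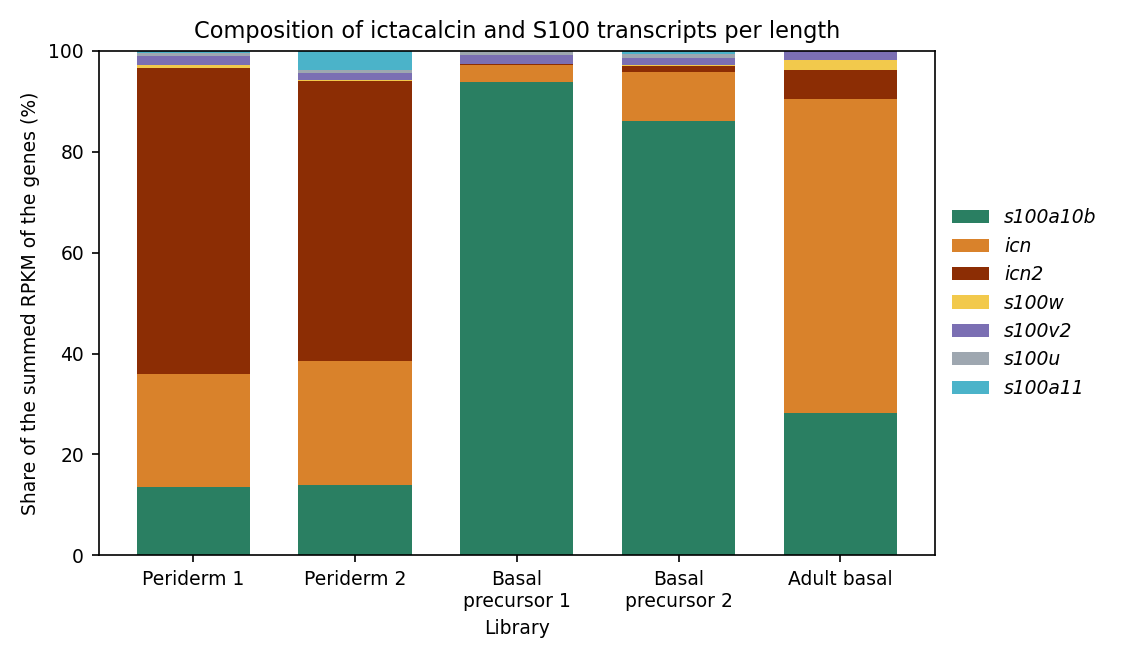
Stacked bars show the share (%) of each of 7 genes in their summed deposited RPKM, for each of the 5 libraries. icn2 is the largest part in both periderm libraries (60.6% and 55.5%), s100a10b in both basal precursor libraries (93.8% and 86.1%) and icn in the adult library (62.2%).

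The balance between the 2 ictacalcins turned over between the layers. The RPKM of icn was 0.368 and 0.444 of that of icn2 in periderm, 11.02 and 8.79 times that of icn2 in basal precursors and 10.8 times in the adult library. The periderm and basal ranges did not overlap, and the adult value lay within the basal one. On the log2 scale the mean ratio was -1.31 ± 0.19 in periderm and 3.30 ± 0.23 in basal precursors (SD, n = 2 each), a difference of 4.61. An exact two-sided permutation test of 2 libraries against 2 gave p = 0.333, the smallest it can give. The sources used here do not say how reads that align to more than 1 gene were treated, so reads shared by copies of nearly the same sequence cannot be told apart.

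The first comparison set the embryonic layers side by side at 1 day, to ask how far they differ by then. icn2, icn and s100w were lower in basal precursors, and s100a10b had the opposite sign but did not pass the test. Of the 7 tested genes, edgeR's quasi-likelihood test called 3, all lower, against 3.5% of 15589 genes called in either direction (2.54% lower, 0.956% higher). The median log2 fold change was -2.91 over the 7 genes and -0.02 over all genes tested. For 46.9% of all genes tested, the libraries of these groups did not overlap, in one direction or the other. In a sorted bulk sample, fewer cells of a type and less RNA per cell cannot be told apart.

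icn2 measured 2764 and 1846 CPM in the periderm libraries against 8.86 and 16.9 CPM in those of basal precursors. Both periderm libraries were far above both basal ones (a 180.2-fold difference, with log2 fold change -7.49, SE 0.59 and adjusted p = 0.00306). All 13 alternatives kept the call, with adjusted p from 2.3e-46 to 0.0207.

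icn measured 966 and 778 CPM in the periderm libraries against 92.8 and 141 CPM in those of basal precursors. The groups did not overlap, and the basal libraries kept more of this transcript than of icn2: 13.4% of the periderm mean for icn against 0.559% for icn2. The fitted difference was 7.54-fold (log2 fold change -2.91, SE 0.40, adjusted p = 0.0142). Leaving out periderm replicate 1 raised its adjusted p to 0.0993, and leaving out basal replicate 1 to 0.0732, both past the threshold. The range over 13 alternatives was 2.74e-08 to 0.0993.

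s100w, which lies between s100a10b and icn, was the scarcest of the 3, at 55.1 and 14.96 CPM in the periderm libraries against 1.70 and 2.56 CPM in those of basal precursors. These basal values rested on 9 and 15 counts, and both lay below either periderm library. The gene was 16.3-fold lower in the basal group, a log2 fold change of -4.02 (SE 0.76, adjusted p = 0.0380). The call did not survive the loss of periderm replicate 1, where the log2 fold change was -2.80 and the adjusted p 0.227. It was also lost when basal replicate 1 was left out (0.129) or transcript rows were summed (0.0761), and edgeR's older fit kept it only just, at 0.04999. The other alternatives kept it too, within a range of 7.15e-06 to 0.227 over 13. With periderm replicate 2 left out the log2 fold change was -4.67.

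s100a10b encodes an S100 protein whose mammalian counterpart does not bind calcium and forms a complex with annexin A2 at the plasma membrane. It measured 937 and 697 CPM in the periderm libraries against 4207 and 1982 CPM in those of basal precursors. Every basal library was above every periderm one, a pattern that 46.9% of tested genes showed in one direction or the other. The fitted log2 fold change was 1.90 (SE 0.49) with an adjusted p of 0.0840, short of the threshold of 0.05. DESeq2 gave an adjusted p of 0.00383, and edgeR one of 0.0154 when basal replicate 2 was left out (range over 13 alternatives 0.00383 to 0.369). The summed mesenchyme markers were also higher in both basal libraries, and their part in the s100a10b difference was not tested.

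s100v2 and s100u differed least between the embryonic groups. s100v2 measured 171 and 99.3 CPM in the periderm libraries against 112 and 47.2 CPM in those of basal precursors, and the groups overlapped (log2 fold change -0.78, SE 0.49, adjusted p = 0.484). s100u measured 160 and 118 CPM in the periderm libraries against 107 and 70.1 CPM in those of basal precursors, which did not overlap (log2 fold change -0.67, SE 0.37, adjusted p = 0.413). Neither passed in any of 13 alternative settings.

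**Figure D2:**
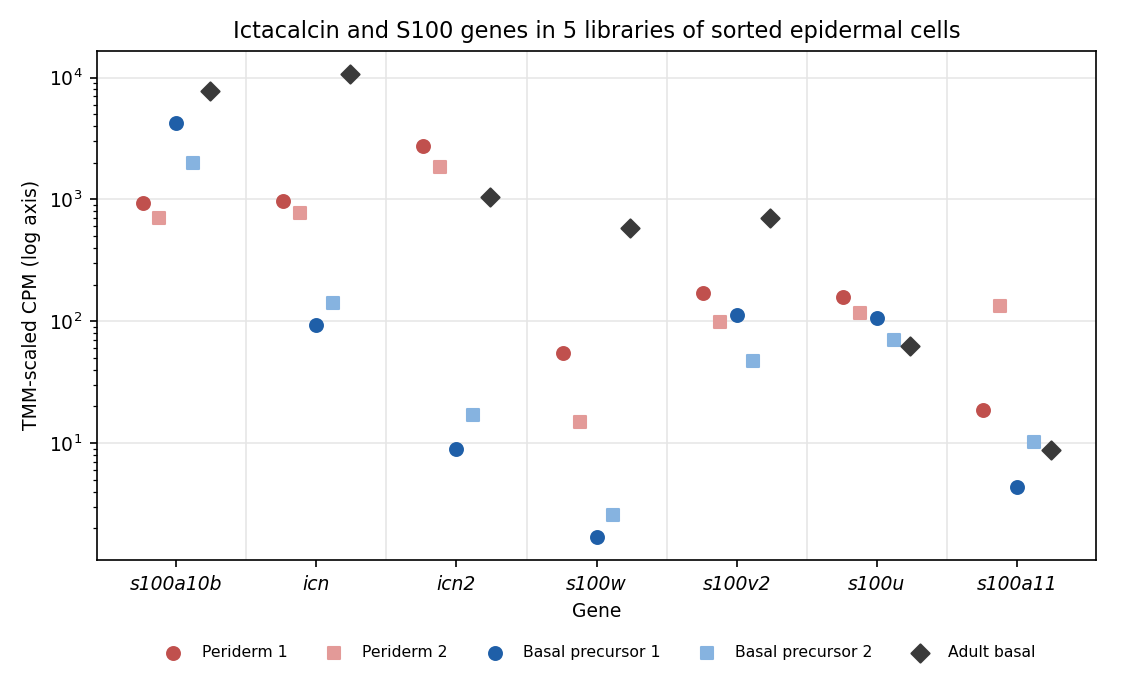
Points show TMM-scaled CPM (log axis) of 7 genes in each library: periderm in red, basal precursors in blue, the adult library in black. icn, icn2 and s100w dip in the basal precursors (lowest s100w, 1.70 and 2.56 CPM), while the adult library is the highest of the 5 for s100a10b, icn, s100w and s100v2.

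s100a11, the homologue of a mammalian S100 gene of keratinocytes, differed widely between the periderm replicates. It measured 18.6 and 133 CPM in the periderm libraries, 4.34 and 10.3 CPM in those of basal precursors and 8.70 CPM in the adult library. The periderm replicates stood 7.15-fold apart, and of 5758 genes with a periderm mean of at least 20 CPM only 0.365% had a larger difference between these libraries. The embryonic difference did not pass (log2 fold change -3.40, SE 0.91, adjusted p = 0.0920). DESeq2 gave an adjusted p of 4.98e-04, and edgeR one of 0.0268 when basal replicate 2 was left out (range over 13 alternatives 4.98e-04 to 0.411). With periderm replicate 2 left out the log2 fold change was -1.34.

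Several ionocyte markers, and markers of other cells, differed between the periderm libraries in the same direction as s100a11. The 8 markers of these ion-transporting skin cells summed to 243 CPM in periderm replicate 1 and 702 CPM in replicate 2, to 95.2 and 120.0 CPM in basal precursors and to 185 CPM in the adult library. There the carbonic anhydrase gene ca2 alone gave 160.3 CPM, foxi3b was at 0, and foxi3a, trpv6 and ca15a were at 0.458 CPM each. The sodium pump subunit gene atp1b1b measured 85.8 and 432 CPM in the periderm libraries. foxi3a, a transcription factor of ionocytes, measured 1.82 and 22.1 CPM, and the calcium channel gene trpv6 1.09 and 12.9 CPM. The related carbonic anhydrase gene ca15a measured 1.27 and 17.8 CPM. Periderm replicate 2 was the higher library for each of these, but atp6v1aa went the other way, at 85.3 and 60.9 CPM, and slc12a10.2 was at 0 in all 5 libraries. The 5 muscle markers summed to 13395 CPM in periderm replicate 1 and 30537 CPM in replicate 2. The basal genes itgb4 (9.64 and 41.4 CPM) and tp63 (26.6 and 66.3 CPM) were higher in replicate 2 as well. So were the mesenchyme marker fbln1 (8.37 and 30.2 CPM) and the leukocyte list's mfap4 (42.4 and 93.5 CPM). Other genes of these lists were higher in replicate 1. They were the basal gene krtt1c19e (2592 and 841 CPM) and the mesenchyme markers twist1a, prrx1a, col6a1 and col6a2. The leukocyte list's coro1a, mpx, lyz, mpeg1.1 and cd74a were too. The summed basal markers measured 2762 CPM in periderm replicate 1 and 1170 CPM in replicate 2. The part of ionocytes or of any of these cells in the s100a11 level was not tested. s100w had the opposite imbalance, 3.68-fold higher in periderm replicate 1.

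**Figure D3:**
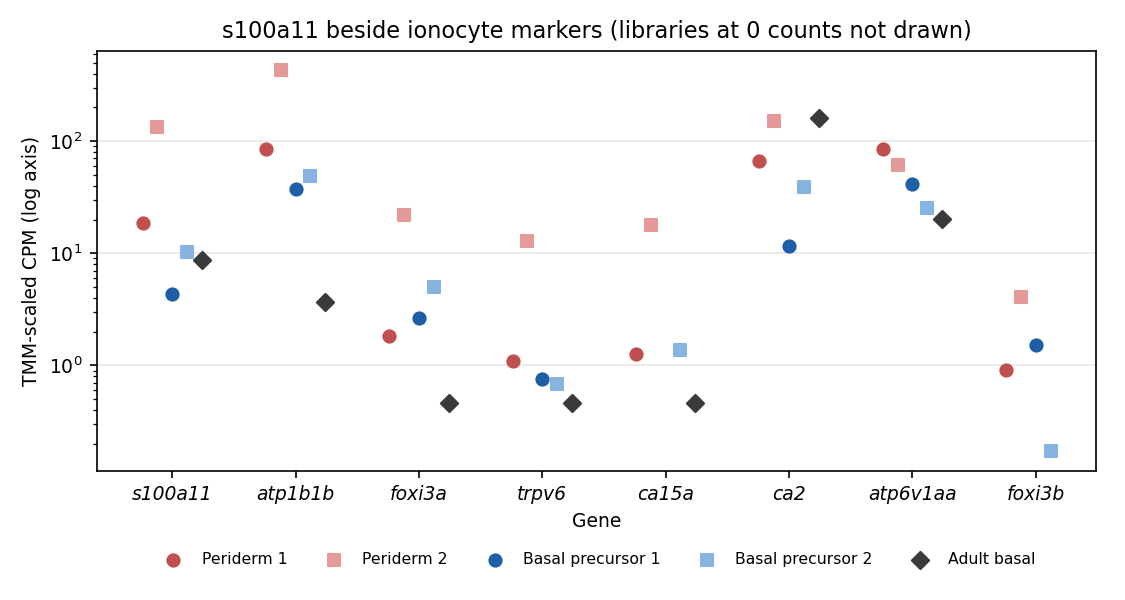
Points show TMM-scaled CPM (log axis) of s100a11 and 7 ionocyte markers in each library, with libraries at 0 counts not drawn. Periderm replicate 2 (light red squares) stands above replicate 1 for s100a11 (133 against 18.6 CPM) and for 6 of the 7 markers.

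Adult basal cells were next set against the embryonic basal precursors, with the lone adult library assumed to vary like the 4 embryonic ones. Every alternative setting of both adult comparisons used this same library, so none of them shows how adult samples vary. icn, icn2, s100w and s100v2 were higher in adult basal cells. edgeR called these 4 of the 7 tested genes, all higher, against 23.1% of 18147 genes called (11.6% higher, 11.4% lower). The adult library lay outside the embryonic basal range for 6 of the 7, as it did for 85.6% of all genes tested. The median log2 fold change was 3.14 over the 7 genes and -0.59 over all genes tested. Over all genes 2110 were higher and 2076 lower, or 1507 and 3890 with total counts in place of TMM scaling (median shift of all log2 fold changes -0.78). The same number of these genes, 4 higher and none lower, was called by edgeR under that scaling, and likewise by DESeq2.

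icn measured 10711 CPM in the adult library against 92.8 and 141 CPM in those of basal precursors (91.5-fold, log2 fold change 6.51, SE 0.66, adjusted p = 0.00114). icn2 measured 1045 CPM against 8.86 and 16.9 CPM (80.7-fold, log2 fold change 6.33, SE 0.65, adjusted p = 0.00115). Both ictacalcins were thus higher in the adult library by a like factor, with the ratio of icn to icn2 near its embryonic basal value. s100w measured 584 CPM against 1.70 and 2.56 CPM (log2 fold change 8.08, SE 0.84, adjusted p = 0.00129). s100v2, an S100 gene that lies away from the ictacalcin neighbourhood, measured 702 CPM against 112 and 47.2 CPM (8.81-fold, log2 fold change 3.14, SE 0.60, adjusted p = 0.00997). Without basal replicate 1 the log2 fold change of s100v2 was 3.85. Each of these 4 calls held in 11 of 11 alternative settings, with the largest adjusted p at 0.0187 for s100v2.

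s100a10b, s100a11 and s100u did not pass. s100a10b measured 7739 CPM in the adult library against 4207 and 1982 CPM in those of basal precursors, a log2 fold change of 1.32 (SE 0.66, adjusted p = 0.182). s100u measured 62.3 CPM against 107 and 70.1 CPM (log2 fold change -0.51, SE 0.51, adjusted p = 0.493). The adult value of s100a11, 8.70 CPM, lay between the basal libraries (log2 fold change 0.25, SE 1.20, adjusted p = 0.898).

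**Figure D4:**
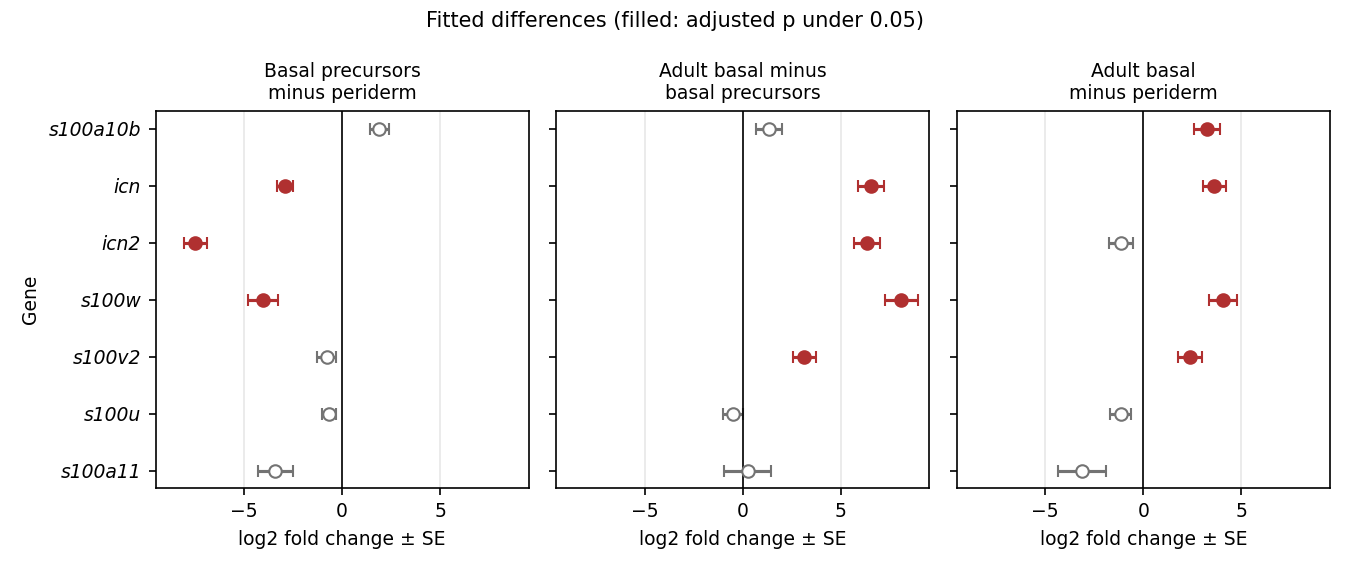
Points show fitted log2 fold changes of 7 genes with their standard errors in 3 comparisons, filled red where the adjusted p is under 0.05. icn, icn2 and s100w lie to the left in basal precursors against periderm (-2.91, -7.49 and -4.02) and to the right in adult against embryonic basal cells (6.51, 6.33 and 8.08).

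Against embryonic periderm, the adult library had higher icn, s100w, s100a10b and s100v2. This comparison shares the adult library with the one above. Layer, age, body site, sorting promoter and transgenic line all differ together in it. edgeR called 4 of 7 genes, all higher, against 28.6% of 18147 genes called (14.2% higher, 14.4% lower). All 7 adult values lay outside the periderm range, as did those of 88.8% of all genes tested. The median log2 fold change was 2.38 over the 7 genes and -0.72 over all genes tested. Over all genes 2585 were higher and 2614 lower, or 1793 and 5134 with total counts alone (median shift -0.93). Under that scaling 3 of the 7 genes were called higher (s100w, icn and s100a10b) and 3 lower (icn2, s100u and s100a11).

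s100w, at 584 CPM in the adult library against 55.1 and 14.96 CPM in periderm, was 16.8-fold higher (log2 fold change 4.07, SE 0.69, adjusted p = 0.00544), and its call held in 11 of 11 alternatives. Its size depended on the periderm libraries, with a log2 fold change of 5.28 without replicate 1 and 3.42 without replicate 2. icn, at 10711 against 966 and 778 CPM, was 12.3-fold higher (log2 fold change 3.62, SE 0.60, adjusted p = 0.00466). s100a10b, at 7739 against 937 and 697 CPM, was 9.46-fold higher (log2 fold change 3.24, SE 0.67, adjusted p = 0.0105). s100v2, at 702 against 171 and 99.3 CPM, was 5.19-fold higher (log2 fold change 2.38, SE 0.59, adjusted p = 0.0207). The calls for icn, s100a10b and s100v2 did not survive leaving out either periderm library, which leaves 1 library in that group. Without single embryonic libraries the log2 fold change lay between 3.48 and 3.78 for icn and 3.06 and 3.47 for s100a10b. For s100v2 it lay between 2.05 and 2.82. The s100v2 call was also lost with total counts alone (adjusted p = 0.0583). Over 11 alternatives the adjusted p lay between 2.58e-09 and 0.0777 for icn, 2.47e-06 and 0.130 for s100a10b, and 8.51e-04 and 0.0985 for s100v2.

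icn2 was the one ictacalcin that the adult library held at a lower level than periderm, at 1045 CPM against 2764 and 1846 CPM. That difference did not pass (log2 fold change -1.14, SE 0.62, adjusted p = 0.198), and passed with total counts alone (adjusted p = 0.0326). s100u (log2 fold change -1.15, SE 0.52, adjusted p = 0.130) and s100a11 (log2 fold change -3.12, SE 1.24, adjusted p = 0.0931) did not pass either. The s100a11 difference passed with total counts alone (adjusted p = 0.0265), with DESeq2 (0.0273), and with periderm replicate 1 (0.0248) or basal replicate 2 (0.0109) left out.

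The adult levels were also set beside a list of 13 periderm markers. That list was drawn up for periderm, so low adult percentages are partly built in. The S100 genes were listed by family, but 5 other S100 genes were not in the list. Of these, 3 were tested in adult against periderm, with no positive log2 fold change and 1 called lower. Both lists were chosen with earlier results of these data known. Of the 13 periderm markers, edgeR called 11 lower in the adult library than in periderm, against 14.4% of all genes tested. It called 1, the keratin gene krt5, higher, against 14.2%. gstp1, at 126% of its periderm mean, was not called. Their adult CPM had a median of 3.49% of the periderm mean and ranged from 0.0635% for the keratin gene cyt1 to 852% for krt5. icn2 stood at 45.3% of its periderm mean, above 11 of the 13 markers. s100u was level with it at 44.9%, and s100a11 was lower at 11.5%. The other 4 members were above their periderm means, s100w at 1668%, icn at 1228%, s100a10b at 947% and s100v2 at 519%. In basal precursors the same 13 markers had a median of 15.1% of the periderm mean, from 0.322% for agr1 to 46.6% for cyt1. There icn2 (0.559%) lay near the annexin anxa1c (0.657%) and the envelope plakin gene evplb (0.635%), and icn (13.4%) near the keratin genes krt92 (15.1%) and krt17 (16.2%). These percentages are a description, with no test of one gene against another.

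**Figure D5:**
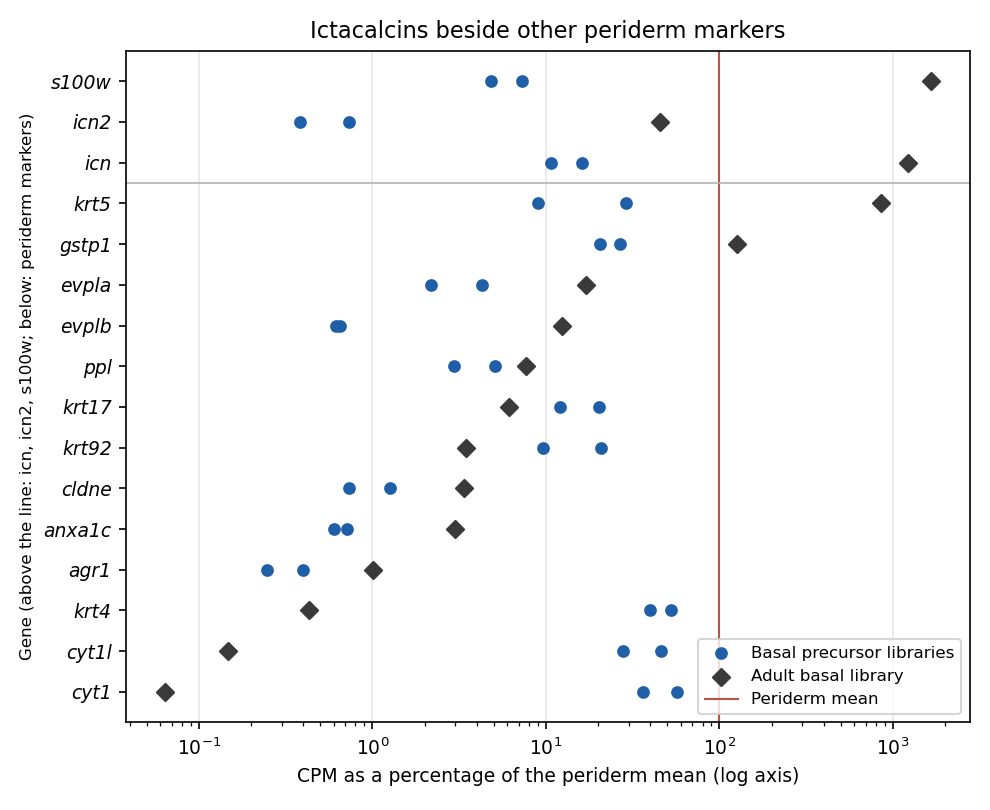
CPM of each gene in the basal precursor libraries (blue) and the adult library (black), as a percentage of its periderm mean (red line, log axis). In basal precursors (mean) and the adult library, icn2 stands at 0.559% and 45.3%, icn at 13.4% and 1228%, and krt4 at 46.1% and 0.430%.

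Genes whose log2 CPM ran most like those of the 3 most abundant members were looked up among 14011 genes, by the root mean square difference of centred log2 CPM over 5 libraries. Nearest to s100a10b were vav2 (0.12), traf3ip2l (0.21) and spint1a (0.22), which encodes a membrane protease inhibitor of the epidermis. vav2 was scarce, at 2.00 and 1.24 CPM in the periderm libraries. spint1a measured 202 and 171 CPM in the periderm libraries, 705 and 331 CPM in those of basal precursors and 1421 CPM in the adult library. Nearest to icn were glipr2, hoxa13a (both 0.21) and fxyd1 (0.29), a sodium pump regulator gene. fxyd1 measured 56.6 and 30.5, 5.28 and 9.74, and 672 CPM in the same order. In the basal precursor libraries glipr2 was at 0 and hoxa13a at 0.377 and 0.513 CPM. Nearest to icn2 was evplb, at a larger distance of 0.89, with tgm1, a transglutaminase gene of the cornified envelope, at 1.03 and apodb at 1.06. In the basal precursor libraries tgm1 was at 0, and apodb at 0 and 0.342 CPM. At levels this low, the 2 counts added before the logarithm set part of the distance. Within the group itself the closest pair was icn and s100w (0.70), and icn and icn2 lay 2.27 apart.

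Possible partners of S100 proteins were read from lists. Of 13 tested annexin genes, which encode calcium-dependent membrane-binding proteins, 3 were lower and none higher in basal precursors against periderm by edgeR. Over all genes tested 2.54% were lower and 0.956% higher. The median log2 fold change of the 13 was -0.03. anxa1c (log2 fold change -7.26, adjusted p = 0.00306) and anxa1b (log2 fold change -5.56, adjusted p = 0.00306) were called in 13 of 13 alternatives. anxa6 (log2 fold change -4.53, adjusted p = 0.0461) was called in 7 of 13 (range 0.00132 to 0.239), with a log2 fold change of -3.55 without basal replicate 1 and -10.73 without basal replicate 2. anxa6 had 0 counts in basal replicate 1, so without replicate 2 its basal group was at 0 and -10.73 does not measure a size. In adult against embryonic basal cells anxa2a, anxa1c and anxa5b were higher and anxa13 lower. Over all genes tested 11.6% were higher and 11.4% lower there. anxa2a, whose mammalian product binds S100A10, measured 775 and 273 CPM in the periderm libraries, 328 and 201 CPM in those of basal precursors and 1472 CPM in the adult library. It was 5.56-fold higher in the adult library than in basal precursors, a log2 fold change of 2.48 (SE 0.65, adjusted p = 0.0304), and the call was lost with total counts alone (adjusted p = 0.0534; range over 11 alternatives 0.00229 to 0.0534). anxa1c (log2 fold change 2.19, adjusted p = 0.0282) was called in 9 of 11 alternatives (range 0.00116 to 0.0925) and anxa5b (log2 fold change 1.78, adjusted p = 0.0310) in 8 of 11 (range 0.00736 to 0.128). anxa13 (log2 fold change -6.75, adjusted p = 0.00392) was called in 11 of 11. It had 1 count in the adult library (0.458 CPM), under the 1.37 CPM of 3 counts, so -6.75 does not measure a size.

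In adult against periderm anxa5b, anxa1a and anxa11a were higher and 5 annexin genes lower, with a median of 0.07 over the 13. Over all genes tested 14.2% were higher and 14.4% lower there. anxa5b (log2 fold change 3.39, adjusted p = 0.00284) was called in 11 of 11 alternatives, anxa11a (log2 fold change 1.72, adjusted p = 0.0320) in 7 and anxa1a (log2 fold change 2.05, adjusted p = 0.0444) in 6. The last pair were lost with either periderm library left out. Among the 5 lower ones, anxa1c (log2 fold change -5.06), anxa1b (-3.97) and anxa13 (-6.30) were each called in 11 of 11. The anxa13 value rested on 1 adult count and does not measure a size. anxa6 had 0 counts in the adult library, at least 23.7-fold below its periderm mean of 32.5 CPM against a floor of 3 counts, and was called in 10 of 11, DESeq2 being the exception (adjusted p = 0.0925). ahnak, whose large mammalian product binds the complex of annexin A2 and S100A10, measured 111 and 188 CPM in the periderm libraries, 130 and 236 CPM in those of basal precursors and 1473 CPM in the adult library. It was 8.05-fold higher in the adult library than in basal precursors (adjusted p = 0.00843) and 9.84-fold higher than in periderm (adjusted p = 0.00507), each in 11 of 11 alternatives. The list of partners and plasminogen receptors held 5 genes, with ahnak itself and anxa2a among them, and all were tested. Of these, 1 was lower in basal precursors against periderm, 3 were higher in adult against embryonic basal cells, and 1 was higher in adult against periderm. Over all genes tested the shares called in those directions were 2.54%, 11.6% and 14.2% in the same order.

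Of 9 tested penta-EF-hand genes, the calpains and their relatives, edgeR called none between the embryonic groups, against 3.5% of all genes tested. The most abundant were the calpain small subunit genes capns1a, at means of 733 and 644 CPM in periderm and basal precursors, and capns1b, at 587 and 536 CPM. In each adult comparison edgeR called 2 of the 9 higher and 1 lower. Over all genes tested the shares called were 23.1% against embryonic basal cells and 28.6% against periderm. In adult against embryonic basal cells capn1b (log2 fold change 3.22, adjusted p = 0.0381) and capn2b (log2 fold change 2.12, adjusted p = 0.0231) were higher, called in 6 and 9 of 11 alternatives. Without basal replicate 2 the log2 fold change of capn1b was 3.82 (adjusted p = 0.0709). capn1a was lower there (log2 fold change -5.54, adjusted p = 0.00216) and in adult against periderm (log2 fold change -4.11, adjusted p = 0.00446). Both calls held in 11 of 11 alternatives, and the adult level of capn1a rested on 6 counts. In adult against periderm pdcd6 (log2 fold change 2.64, adjusted p = 0.0143) and pef1 (log2 fold change 1.96, adjusted p = 0.0440) were higher, and both calls were lost with either periderm library left out.

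Of 6 calmodulin genes, calm1b was lower in basal precursors (log2 fold change -2.76, adjusted p = 0.0262) and was called in 9 of 13 alternatives (range 1.2e-04 to 0.152). Over all genes tested 3.5% were called between the embryonic groups, 23.1% in adult against embryonic basal cells and 28.6% in adult against periderm. None of the 6 was called in adult against embryonic basal cells. There calm2b was at a mean of 667 CPM in basal precursors and 1580 CPM in the adult library (adjusted p = 0.108). calm3b was at 1209 and 947 CPM (adjusted p = 0.659). In adult against periderm calm2a (log2 fold change -4.15, adjusted p = 0.0204) and calm3a (log2 fold change -2.54, adjusted p = 0.0322) were lower. The adult level of calm2a rested on 4 counts. Their calls held in 11 and 10 of 11 alternatives, in the same order. The exception was calm3a without periderm replicate 2 (log2 fold change -1.88, adjusted p = 0.0778).

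The 5 other S100 genes, s100a1, s100b, s100s, s100t and s100z, each lay at or under 12.5 CPM in every library. Of these, s100z and s100t were tested in the embryonic comparison and neither was called (adjusted p = 0.116 and 0.207). s100z measured 12.5 and 7.31 CPM in the periderm libraries against 1.51 and 2.56 CPM in those of basal precursors. It had 0 counts in the adult library, at least 7.23-fold below its periderm mean of 9.93 CPM against a floor of 3 counts (adjusted p = 0.0333 in edgeR), and is named although it lies under 10 CPM. s100t measured 7.46 and 2.36 CPM in the periderm libraries, 0.943 and 0.855 CPM in those of basal precursors and 3.21 CPM in the adult library. The neural gene s100b had 4.73 and 1.46 CPM in periderm and 0 counts in the other 3 libraries.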

How the data were processed

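The authors deposited raw counts of reads per transcript row, with RPKM and TPM values beside them per the file headers. The deposited RPKM values, scaled by the authors for row length and for library size, served here to compare levels between genes. The deposited TPM values were not used. HISAT2 2.2.1, featureCounts 2.0.3 and the build GRCz11 are named in the submitters' processing notes. How strand and multiple alignments were treated is not given in the sources used here. Of 75805 transcript rows, 57 had names turned into dates, of which 46 were renamed by accession.

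Each symbol was represented by its row of highest mean raw count. edgeR 4.0.16 in R 4.3.3 was used with filterByExpr, TMM scaling, glmQLFit and glmQLFTest, and Benjamini-Hochberg adjustment over all genes tested at 0.05. The embryonic comparison was fitted on 4 libraries and the adult comparisons on 5. Each standard error is the size of the log2 fold change over the root of its F statistic. The code was tested on simulated counts. Alternatives were RLE scaling, total counts, no filter, a filter of 5 CPM, DESeq2 1.42.0, edgeR's older fit, rows summed, leaving out each embryonic library and, for the embryonic comparison, all 5 libraries or a replicate block. Genes and lists were chosen with earlier results of these data known. The text names all 9 members. Of each partner list it names up to 4 called genes per direction whose higher group mean reached 10 CPM. Lists with no call are shown by their 2 most abundant genes. It adds the sorted genes and the 3 genes most like each of the 3 most abundant members. Sequences were not used here.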

Additional observations from a re-analysis of the deposited data

How the results depend on the processing

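The 7 tested genes gave 245 values under alternative settings, of which 219 kept direction and side of the threshold, 12 lost a call, 12 gained one and 2 reversed. Both reversals were of s100a11 in adult against embryonic basal cells, where no setting gave a call and the main value was 0.25. It was -0.59 with total counts alone, and between -0.28 (without basal replicate 1) and 1.00 when single libraries were left out. Without basal replicate 1, the remaining basal library was at 10.3 CPM, above the adult 8.70 CPM. Total counts shifted the median of all log2 fold changes by -0.78, and the part of that shift in the reversal was not tested. Between the embryonic groups 3 members were called, or 5 with DESeq2, which added s100a10b and s100a11, and between 1 and 5 when single libraries were left out, in fits with 1 residual degree of freedom. Over all genes the count was 545, or 1396 with DESeq2 (557 higher, 839 lower, against 149 and 396), 349 with edgeR's older fit, 208 with rows summed, and between 73 and 1009 without single libraries. In adult against periderm 4 members were called, 6 with total counts alone and between 1 and 5 without single libraries. In adult against embryonic basal cells 4 were called in each of 11 alternatives. Replicate numbers in the titles are not said to mark a shared clutch or day; across 15589 genes the difference between replicates 1 and 2 correlated between the groups (Pearson r = 0.22, across genes, which are not independent replicates). With a replicate block, 5 members were called in the embryonic comparison, adding s100a10b (adjusted p = 0.0435) and s100a11 (adjusted p = 0.0395), and 584 genes in all. No paired analysis was possible for the adult comparisons because they share fewer than 2 numbers. Depth limits s100a10a, at 0 counts, and s100w in basal precursors, at 9 and 15 counts.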
